A study of Mus musculus with 6 samples.

Results

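The genes described here are 9 chemokine ligands (Ccl1, Ccl3, Ccl4, Ccl5, Ccl9, Ccl22, Cxcl2, Cxcl10 and Xcl1) and Il1a, the gene of interleukin-1α (IL-1α), in mouse T cells that carried the transcription factor E47. They were picked as a set of secreted signals, by exact gene symbol in the platform annotation, after earlier results of the same arrays had shown several of them to be lower in E47 cells. They are 10 of the 18193 genes measured, and 11 probe sets stand for them, 2 for Ccl9 and 1 for each of the others. E47, a product of the Tcf3 gene, is a basic helix-loop-helix (bHLH) protein that binds DNA at E-boxes. RNA came from 3 samples carrying a pMIT-E47-ER retrovirus and 3 control samples carrying pMIT-bHLH-ER. ER is the tamoxifen-controlled domain of the estrogen receptor, and the labels say no more about the control construct than its name.

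Each of 3 independent experiments gave 1 E47 and 1 control sample. Both groups began as CD4+CD25- T cells from lymph nodes of C57BL/6 mice, aged 7, 8 and 9 weeks in experiments 1 to 3, with 3, 3 and 4 mice pooled per sample. Both were grown for 2 days on anti-CD3 (2 µg/ml) and anti-CD28 (1 µg/ml) with TGF-β1 at 5 ng/ml and IL-2 at 200 U/ml. Cells positive for CD4 and Thy1.1, the mark of the virus, were then sorted and given 1 µM tamoxifen for 6 hours beside the antibodies and IL-2. No sample lacked tamoxifen, and transduction was on day 1, so early and late effects of the constructs cannot be told apart. Array medians were alike, at intensities of 34.3 to 35.4, or 5.10 to 5.14 on the log2 scale. All 8 markers of CD4 T cells fixed for this check, Cd4, Cd3d, Cd3e, Cd3g, Cd2, Cd5, Cd28 and Lat, averaged above that median, and so did all 5 Treg markers, Foxp3 among them. Cd8a, Cd8b1 and some markers of other cells, such as Eomes, Csf1r and Pdpn, did so as well. A level above the median therefore does not set cell types apart.

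Chemokines are small secreted proteins that draw leukocytes along a gradient by acting on G protein-coupled receptors. Activated T cells release several of them, chiefly CCL3, CCL4, CCL5 and XCL1, and so recruit monocytes, dendritic cells and other lymphocytes, while CCL22 and CXCL10 are best known from dendritic cells and from cells exposed to interferon. IL-1α acts through the IL-1 receptor and, unlike IL-1β, is active before it is cleaved, so it serves as an alarm signal when cells are damaged.

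E47 binds E-boxes, so the letters around the start sites are given first for 4 of the genes. Il1a and Ccl1 had the lowest 2 differences between E47 and control among the 10 genes, Ccl3 stands for the pair Ccl3 and Ccl4, and Ccl22 alone held the E-box form CAGGTG, which reads CACCTG on the strand shown. The sequences are from RefSeq (GRCm38.p6), run from 250 bases before to 50 bases after the start in the direction of the gene, and carry every E-box (CANNTG) in capitals. Il1a lies at chr2:129309923-129310222, minus strand. Ccl1 lies at chr11:82179763-82180062, minus strand, and Ccl3 at chr11:83649329-83649628, minus strand. Ccl22 lies at chr8:94745434-94745733, plus strand.
Il1a promoter: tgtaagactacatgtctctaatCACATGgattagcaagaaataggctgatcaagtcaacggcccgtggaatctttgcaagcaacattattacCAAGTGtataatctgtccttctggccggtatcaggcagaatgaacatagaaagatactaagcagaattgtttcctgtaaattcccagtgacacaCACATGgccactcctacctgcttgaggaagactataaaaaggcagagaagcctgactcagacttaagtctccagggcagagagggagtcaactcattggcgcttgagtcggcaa
Ccl1 promoter: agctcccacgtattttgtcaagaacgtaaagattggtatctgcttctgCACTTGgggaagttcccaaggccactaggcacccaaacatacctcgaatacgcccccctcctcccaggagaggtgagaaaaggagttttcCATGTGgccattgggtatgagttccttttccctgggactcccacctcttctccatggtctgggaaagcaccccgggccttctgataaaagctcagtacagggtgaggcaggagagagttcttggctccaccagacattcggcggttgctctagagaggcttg
Ccl3 promoter: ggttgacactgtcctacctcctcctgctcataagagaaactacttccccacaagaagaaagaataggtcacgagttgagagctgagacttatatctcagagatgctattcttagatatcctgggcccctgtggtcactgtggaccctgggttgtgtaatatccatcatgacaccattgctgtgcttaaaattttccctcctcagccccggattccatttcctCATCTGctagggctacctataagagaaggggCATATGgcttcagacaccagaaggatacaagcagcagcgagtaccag
Ccl22 promoter: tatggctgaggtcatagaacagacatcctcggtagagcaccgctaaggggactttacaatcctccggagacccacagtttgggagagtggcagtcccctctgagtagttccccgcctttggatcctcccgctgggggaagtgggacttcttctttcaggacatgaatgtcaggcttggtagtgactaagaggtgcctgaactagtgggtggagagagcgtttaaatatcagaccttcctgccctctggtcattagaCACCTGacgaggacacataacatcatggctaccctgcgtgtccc

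The RefSeq table held promoters of 8 of the genes, all except Ccl4 and Ccl5. Motifs were searched on both strands, and shares refer to windows of 300 bases. CANNTG was found in 6 of 8 (75%), against 72.3% of all 32851 promoters in the table, with 3 in Il1a, 2 each in Ccl1 and Ccl3, and 0 in Cxcl2 and Xcl1. Its CAGGTG form, which counts as a CANNTG as well, was found in 1 of 8 (12.5%), at bases 7 to 12 of Ccl22, against 20.2% of all promoters. A loose NF-κB pattern, GGGNNNNNCC with any inner bases and so wider than the consensus, was in 5 of 8 (62.5%), against 50.8%. These were Ccl1, Ccl9, Ccl22, Cxcl2 and Cxcl10, and whether each site met the stricter consensus was not examined. The AP-1 motif TGANTCA was in 3 of 8 (37.5%), Il1a, Ccl9 and Cxcl10, against 7.81%. In Il1a it lay at bases -12 to -6. The TATA motif TATAAA was in 2 of 8 (25%), Il1a and Ccl9, against 13.6%. None of these shares was tested against the whole, and a match describes letters, not a bound site.

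The levels of the 10 genes in E47 and control cells follow as a description, because the genes were chosen from this contrast. All values are log2 of the deposited intensity, given for experiments 1, 2 and 3 in turn, and differences are E47 minus control within an experiment. Every one of the 10 genes was lower in E47 in all 3 experiments, a pattern shown by 19.9% of all genes. The exception among the alternatives was Ccl5 under quantile normalization, which left it 0.00175 higher in E47 in experiment 1. In 6 of the 10, Il1a, Ccl1, Ccl9, Ccl22, Cxcl2 and Cxcl10, all E47 arrays lay below all control arrays, which held for 7.13% of all genes. In the limma fit with the experiment as a block, 7 of 10 were past an adjusted p of 0.05 (as were 0.363% of all genes, in this direction), namely Il1a, Ccl1, Ccl3, Ccl4, Ccl9, Cxcl2 and Xcl1. Without the block 0 of 10 passed in limma (0.0055% of all genes did, in this direction). In that fit 8 were lower at an unadjusted p under 0.05, as were 3.93% of all genes. Nothing is read from these counts, since the same contrast picked the genes. The median log2 fold change was -0.71, against -0.03 over all genes. Samples were bulk RNA, so fewer cells that make a transcript and less transcript per cell cannot be told apart.

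Il1a had 6.53, 5.47 and 6.36 in E47 cells, against 7.63, 7.12 and 8.11 in control cells. The highest E47 array lay below the lowest control array. Differences were -1.10, -1.65 and -1.75, a mean of -1.50 (SD 0.35, n = 3), or 2.83-fold lower. The value of E47 array 2 was not far above the median of that array, 5.13. With 16 added to the intensities before log2 the mean difference was -1.31. The receptor genes of IL-1 are taken up with the related lists.

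Ccl1 encodes the ligand of CCR8, a receptor found on Th2 cells and on Treg cells in tissues. It had 7.97, 8.57 and 7.41 in E47 cells, against 8.98, 9.88 and 8.91 in control cells. The groups did not overlap, although the gap between the highest E47 array and the lowest control array, experiments 2 and 3, was small. Differences of -1.02, -1.30 and -1.50 gave a mean of -1.27 (SD 0.25, n = 3), or 2.42-fold lower.

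Ccl3 and Ccl4 encode MIP-1α and MIP-1β, which attract monocytes and T cells. Ccl3 had 11.44, 10.64 and 11.59 in E47 cells, against 12.08, 11.43 and 12.47 in control cells. Ccl4 had 11.70, 10.99 and 11.84 in E47 cells, against 12.26, 11.70 and 12.54 in control cells. In both genes the groups overlapped, since control array 2 was no higher than the E47 arrays of experiments 1 and 3, yet within each experiment E47 was lower. The mean difference was -0.77 (SD 0.12, n = 3) for Ccl3 and -0.66 (SD 0.09, n = 3) for Ccl4, that is 1.70-fold and 1.58-fold lower.

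Ccl5 encodes RANTES, a late product of activated T cells. Its values were 6.56, 5.60 and 5.51 in E47 cells, against 6.59, 5.95 and 5.60 in control cells. The groups overlapped almost wholly, with differences of -0.03, -0.35 and -0.09 and a mean of -0.16 (SD 0.17, n = 3). That mean was smaller than its spread, and without experiment 2 it was -0.06.

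Ccl9 encodes MIP-1γ, a ligand of CCR1 described in mouse. Its brighter probe set had 4.05, 4.85 and 4.36 in E47 cells, against 5.12, 5.65 and 5.68 in control cells, without overlap. The E47 values were all below the array median, and no test of detection was possible, so the size of the mean difference, -1.06 (SD 0.26, n = 3), is uncertain. Adding 16 to the intensities before taking log2 gave -0.69. The other probe set had 3.73, 4.50 and 4.13 in E47 cells, against 4.08, 5.28 and 5.06 in control cells, with overlap and a mean difference of -0.69 (SD 0.30, n = 3). Both probe sets were lower in E47 in every experiment.

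Ccl22 encodes a ligand of CCR4, a receptor of Th2 and Treg cells. It had 5.65, 5.38 and 5.51 in E47 cells, against 6.10, 5.68 and 5.84 in control cells, a mean difference of -0.36 (SD 0.08, n = 3). These levels were not far above the array median, and with 16 added before log2 the mean difference was -0.28. The groups were apart by a narrow margin, 5.65 in E47 array 1 against 5.68 in control array 2.

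Cxcl2 encodes MIP-2, a ligand of CXCR2 that attracts neutrophils. It had 5.16, 5.54 and 5.39 in E47 cells, against 5.76, 6.35 and 6.68 in control cells. All E47 arrays were lower than all control arrays, and the differences of -0.60, -0.81 and -1.29 gave a mean of -0.90 (SD 0.35, n = 3), or 1.86-fold lower. The E47 values were not far above the array median, and with 16 added before log2 the mean was -0.70.

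Cxcl10 encodes IP-10, an interferon-induced ligand of CXCR3. It had 4.73, 4.82 and 4.90 in E47 cells, against 5.09, 5.18 and 5.09 in control cells. These values hardly varied within a group and did not overlap, but 5 of the 6 arrays were below the array median. The mean difference was -0.30 (SD 0.09, n = 3), and with 16 added before log2 it was -0.20.

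Xcl1 encodes lymphotactin, which acts on XCR1 of cross-presenting dendritic cells. It had 9.56, 11.16 and 9.73 in E47 cells, against 10.23, 11.68 and 10.45 in control cells. The groups overlapped because both arrays of experiment 2 stood above all others. Within experiments the differences were close to each other, -0.67, -0.52 and -0.72, with a mean of -0.64 (SD 0.11, n = 3), or 1.55-fold lower.

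**Figure D1:**
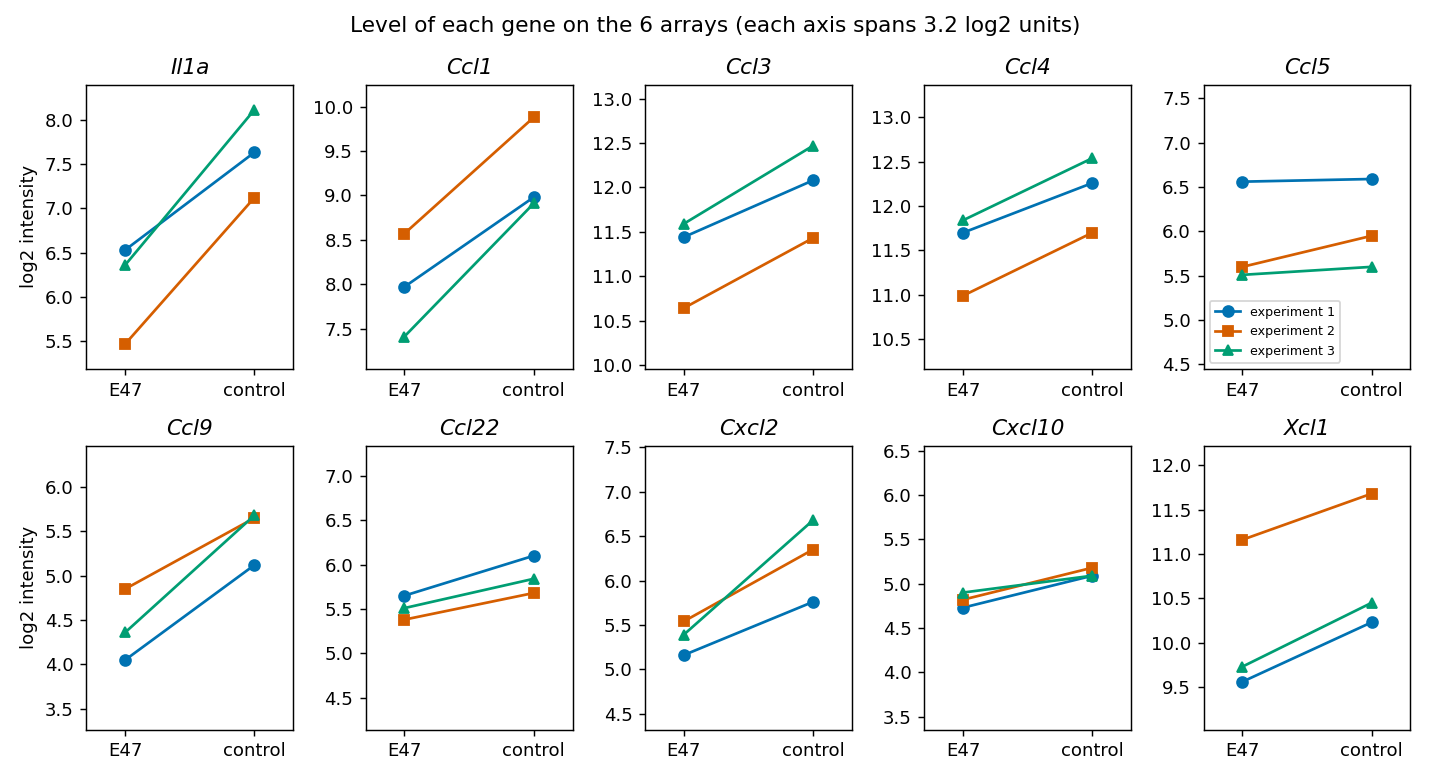
Log2 intensity of the 10 genes in E47 samples (left of each panel) and control samples (right), with 1 marker per array and a line joining the 2 arrays of an experiment. All lines climb towards control, and those of Ccl5 are nearly flat in experiments 1 and 3.

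Set by experiment, the median difference of the 10 genes was -0.62, -0.75 and -0.80 in experiments 1 to 3, where the median over all genes was 0.01, -0.03 and -0.04. Single genes ranged from -1.10 to -0.03 in experiment 1, from -1.65 to -0.31 in experiment 2 and from -1.75 to -0.09 in experiment 3. Il1a, Ccl1, Ccl3 and Cxcl2 each had their smallest difference in experiment 1 and their largest in experiment 3. For Ccl5 the largest difference was in experiment 2, and for Ccl9 the smallest was.

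**Figure D2:**
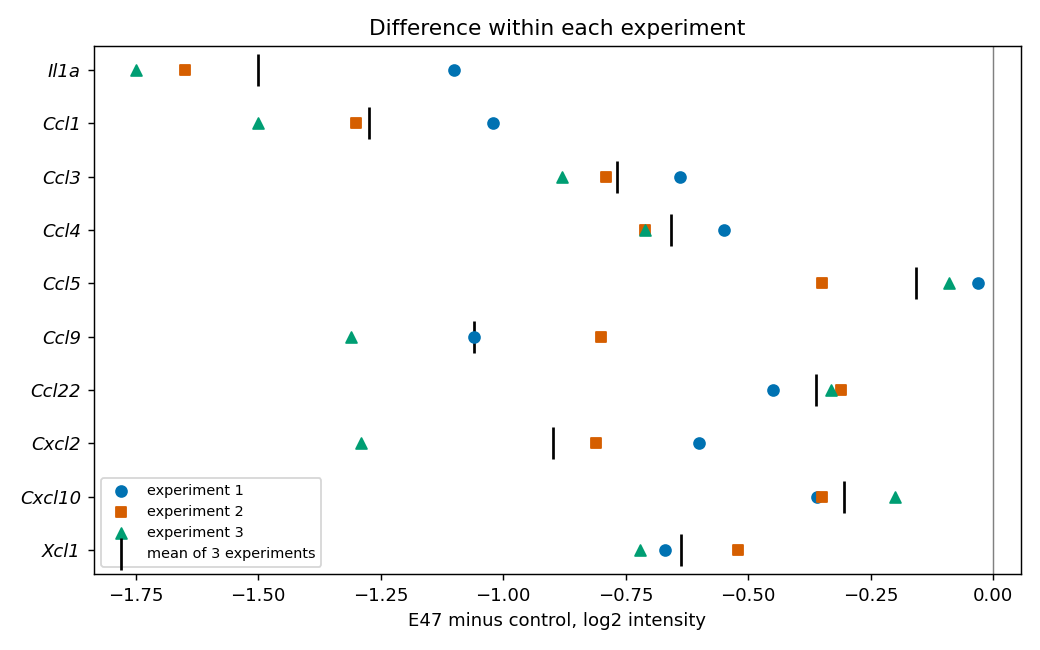
Difference between the E47 and the control array of each experiment on the log2 scale, with 1 marker per experiment and a vertical bar at the mean of the 3. All 30 markers lie below 0, from -1.75 for Il1a in experiment 3 to -0.03 for Ccl5 in experiment 1.

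Differences between the experiments were not themselves used to choose the genes. They were tested with an F test of the experiment in the same limma fit, with Benjamini-Hochberg adjustment over all genes. That test uses the same residual spread as the E47 contrast that picked the genes, so it is not independent of the choice. Xcl1, Ccl3, Ccl5, Ccl4 and Ccl1 differed between experiments, with adjusted p = 0.0034, 0.0145, 0.0158, 0.0188 and 0.0256. These are 5 of 10 genes, where 3.2% of all genes passed. All genes include the dim ones, and Ccl3 and Ccl4 had nearly the same profile. The count is therefore not read as a trait of the set. The other 5 did not pass, Il1a with adjusted p = 0.0605 the closest and Cxcl10 with adjusted p = 0.808 the farthest. When the fit and the adjustment ran over probe sets, 1 of the 11 passed, that of Xcl1 (adjusted p = 0.0170), and that of Ccl3 had adjusted p = 0.0517. The share of all probe sets that passed is not given here, so nothing is read from the change in count.

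Genes that were all lower in E47 took unlike courses between experiments. Averaged over the E47 and control arrays of experiments 1, 2 and 3, Xcl1 stood at 9.89, 11.42 and 10.09 and Ccl1 at 8.48, 9.23 and 8.16, both highest in experiment 2. Ccl3 stood at 11.76, 11.04 and 12.03 and Ccl4 at 11.98, 11.34 and 12.19, both lowest in experiment 2. Il1a, at 7.08, 6.29 and 7.23, was also lowest there but did not pass. Ccl5 had its high level in experiment 1, with 6.58, 5.77 and 5.55. For Xcl1 the range between experiments, 1.53, exceeded its mean difference between E47 and control, and the same held for Ccl3 (0.99), Ccl4 (0.85) and Ccl5 (1.02). For Il1a (0.94) and Ccl1 (1.07) it was the smaller of the 2. Without experiment 2, 0 of 10 genes passed in limma (lowest adjusted p = 0.258, Ccl5, with 3 genes at an unadjusted p under 0.05), and without experiment 3 only Xcl1 did (adjusted p = 0.0129). Without experiment 1 the count was again 5, but Il1a passed (adjusted p = 0.00314) and Ccl5 did not (adjusted p = 0.353). The shares of all genes that passed in these smaller fits are not given here, so the changes in count are not read as a trait of these genes.

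Experiment 2 stood apart across the array as well. Of the 582 genes that differed between experiments, experiment 2 was the one farthest from the other 2 in 487. Its cells had more Foxp3, at 7.83 in E47 and 8.16 in control cells, where experiments 1 and 3 had 6.36 and 6.07 in E47 cells and 6.42 and 6.29 in control cells. The experiments also differed in the age of the mice and, for experiment 3, in the number pooled, and these cannot be told apart.

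**Figure D3:**
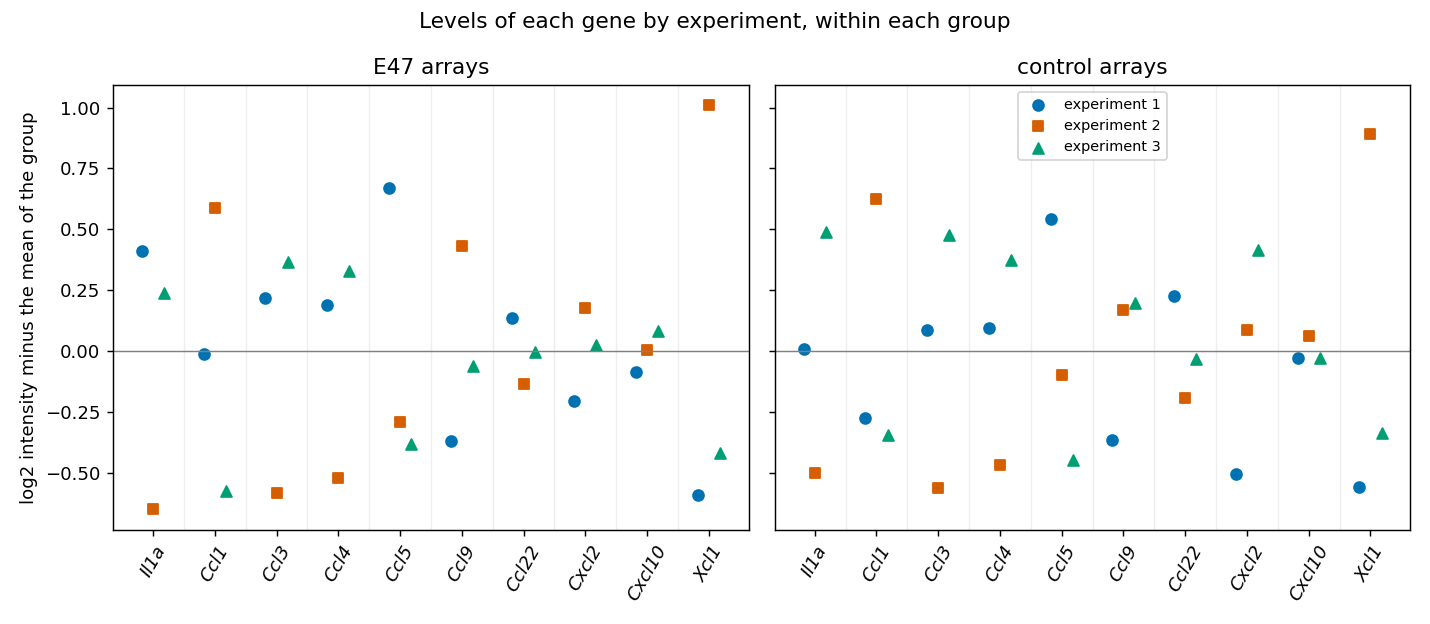
Level of each gene in each experiment minus its group mean on the log2 scale, with E47 arrays on the left and control arrays on the right. In both groups experiment 2 was the highest for Xcl1 and Ccl1 and the lowest for Il1a, Ccl3, Ccl4 and Ccl22.

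Across the 6 arrays, Ccl3 and Ccl4 had nearly the same profile (Pearson r = 0.999), and Il1a was close to both (r = 0.943 and 0.942). Ccl9 was closest to Cxcl2 (r = 0.954) and Ccl1 to Ccl9 (r = 0.860). Xcl1 ran with Ccl1 (r = 0.817) but not with Ccl3 (r = -0.328). These are descriptions over 6 arrays that share 3 experiments and 1 contrast. Outside the set, 1517 genes with an SD of at least 0.3 were ranked by likeness to the mean of the 10. The 5 closest were Cxcr6, Napb, Ammecr1, Adam19 and Tmem98 (r from 0.959 to 0.972), and 16 had r over 0.9. Centred on each gene, that mean was -0.34, -0.38 and -0.42 in E47 arrays and 0.30, 0.38 and 0.46 in control arrays. The ranking therefore favours genes lower in E47, and the size of r is not read further. Cxcr6, the receptor for CXCL16, had 7.40, 7.20 and 7.01 in E47 cells, against 8.02, 7.95 and 8.14 in control cells. Adam19, a membrane metalloprotease, had 8.30, 8.54 and 8.47 in E47 cells, against 9.05, 9.36 and 9.27 in control cells.

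Other genes of the same pathways were set beside these from lists that do not include them. Of 26 other chemokine ligands measured, 0 passed in limma, with 6 lower (23.1%) and 1 higher (3.85%) at an unadjusted p under 0.05, where 6.9% and 5.1% of all genes were. Most of the 26 averaged below the array median in both groups, such as Ccl11 (2.98 in E47, 3.18 in control cells) and Cxcl5 (2.86 and 2.66). Detection could not be tested, so these counts do not show that such dim genes were unchanged. The median log2 fold change was -0.10, against -0.03 over all genes. Ccl20, the ligand of CCR6 on Th17 and Treg cells, came closest. It had 10.54, 9.21 and 9.51 in E47 cells, against 10.75, 10.12 and 10.66 in control cells, so that E47 array 1 lay above control array 2 and the groups overlapped. The mean difference was -0.75 on the log2 scale (SE 0.18, adjusted p = 0.165 in limma). Without experiment 1 it passed at -1.03 (adjusted p = 0.00695). Cxcl16, a membrane-bound ligand of CXCR6, had 6.13 in E47 and 6.37 in control cells (difference -0.25, SE 0.08, adjusted p = 0.339).

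Of 12 receptor genes for these ligands and IL-1, 0 passed in limma, with 3 lower (25%) and 0 higher at an unadjusted p under 0.05, against 6.9% and 5.1% of all genes. The median was -0.16, against -0.03 over all genes. Ccr8, the receptor of CCL1, had a difference of -0.32 (SE 0.09, adjusted p = 0.254). Ackr2, a scavenger of inflammatory CC chemokines, had -0.32 (SE 0.10, adjusted p = 0.304) and Ccr4 had -0.23 (SE 0.10, adjusted p = 0.433). Cxcr3 stood at 6.79 in E47 and 6.75 in control cells, a difference of 0.03 (SE 0.08). Il1r2, the decoy receptor of IL-1, stood at 7.21 in E47 and 7.20 in control cells. The rest, Ccr3, Xcr1, Il1rap, Cxcr2, Ccr1, Ackr1 and Il1r1, lay between -0.26 and -0.06. Of these, Ccr3, Xcr1, Cxcr2, Ccr1 and Il1r1 averaged below the array median in both groups.

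Among 10 other genes of the IL-1 family, 2 fell and 0 rose, where 0.363% of all genes fell and 0.781% rose. Both encode chains of the IL-18 receptor. Il18rap had 7.26, 6.88 and 6.99 in E47 cells, against 7.82, 7.76 and 7.73 in control cells (log2 fold change -0.73, SE 0.09, adjusted p = 0.0244 in limma). Il18r1 had 8.56, 9.83 and 7.87 in E47 cells, against 9.30, 10.29 and 8.77 in control cells (log2 fold change -0.70, SE 0.10, adjusted p = 0.0413). The Il18rap groups were clear of each other and the Il18r1 groups overlapped, with experiment 2 high in both groups. Neither passed without the replicate block (adjusted p = 0.0896 and 0.861), without experiment 2 (0.166 and 0.0740) or without experiment 3 (0.168 and 0.220), and Il18r1 was also lost without experiment 1 (0.0604). With the experiment as a random block, at an estimated correlation, Il18r1 did not pass (adjusted p = 0.534) and Il18rap did (adjusted p = 0.0221). Il1b, the other IL-1 receptor agonist of the family, stood at 4.61 in E47 and 4.82 in control cells, both below the array median (log2 fold change -0.22, SE 0.10, adjusted p = 0.468). Il1rn, which encodes the receptor antagonist, had -0.28 (SE 0.12, adjusted p = 0.415). The family's median was -0.15.

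Downstream of the IL-1 receptor, 0 of 11 signalling genes passed in limma, with 0 lower and 1 higher at an unadjusted p under 0.05, and their log2 fold changes lay between -0.10 and 0.21. The kinase gene Irak2 had 0.21 (SE 0.09, adjusted p = 0.411) and the ubiquitin ligase gene Peli1 0.13 (SE 0.08, adjusted p = 0.574).

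**Figure D4:**
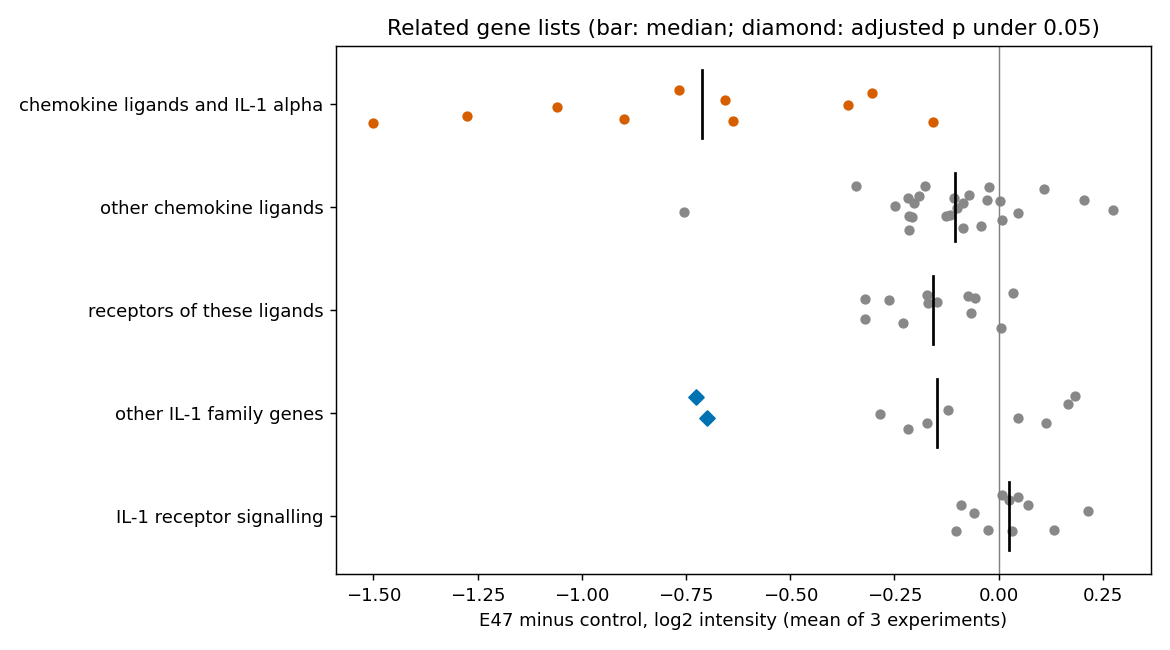
Log2 fold change, E47 minus control, of each gene in 5 lists, with a bar at the median of each list and diamonds for genes past an adjusted p of 0.05. The 10 genes of the top row were chosen from this contrast and carry no test. Il18rap and Il18r1 are the diamonds, and Ccl20 is the far left point of its row.

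Some of the genes lie side by side, such as Ccl3 and Ccl4, while others, such as Xcl1, do not. Ccl1, Ccl3, Ccl4, Ccl5 and Ccl9 are on mouse chromosome 11, Cxcl2 and Cxcl10 on 5, Ccl22 on 8, Il1a on 2 and Xcl1 on 1. The nearest measured protein-coding gene on each side was examined, a comparison added with the values in view. Ccl6, which lies between Ccl9 and Ccl3, differed by -0.22 (SE 0.12, adjusted p = 0.528 in limma), at 3.76 in E47 and 3.98 in control cells, both below the array median. Ccl8, next to Ccl1, had -0.18 (SE 0.11, adjusted p = 0.568). Cxcl1, next to Cxcl2, had 0.11 (SE 0.09, adjusted p = 0.684), and Cx3cl1, next to Ccl22, had -0.10 (SE 0.10, adjusted p = 0.747). None of the neighbours outside the set passed, and their adjusted p lay between 0.347 (Wfdc17, next to Ccl4) and 0.998 (Dpt, next to Xcl1).

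Several of the genes, Il1a, Cxcl2, Ccl9 and Ccl22 among them, are also made by macrophages and dendritic cells, so markers of other cells were read on the same arrays. The cells began as CD4+CD25- T cells and were sorted for CD4 and Thy1.1, and no purity after the sort is given here. Of 7 macrophage and monocyte markers 0 passed in limma. At an unadjusted p under 0.05, 2 were lower, Lyz2 and Cd14, as were 6.9% of all genes. In every experiment 5 were lower in E47, as were 19.9% of all genes. Their summed intensity was 250.7 to 264.0 in E47 and 271.9 to 279.5 in control cells, most of it from Csf1r and Fcgr1, the 2 whose mean lay above the array median. Cd68 was higher in E47 in every experiment (0.13, 0.13 and 0.03 on the log2 scale), and Itgam had a mean difference of 0.11 with no common direction. Lyz2 and Cd14 lay below the array median on every array, at 3.76 to 4.01 and 3.46 to 3.63 in E47 and 4.08 to 4.16 and 3.72 to 3.92 in control cells. The 5 dendritic cell markers summed to 158.8 to 166.6 in E47 and 167.5 to 204.5 in control cells, and 0 passed, also at an unadjusted p. Their part in the lower levels of these genes was not tested.

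NK and CD8 T cells are known makers of Xcl1 and Ccl5. The 2 CD8 markers summed to 188.9 to 326.9 in E47 and 140.0 to 209.1 in control cells, and the 4 NK markers to 159.4 to 263.4 in E47 and 129.1 to 204.6 in control cells. Both sums were higher in E47 within every experiment, opposite to Xcl1 and Ccl5, and highest in experiment 2 in both groups, as Xcl1 was. The NK sum followed Eomes, a factor that activated T cells also make, with 6.70, 7.69 and 7.39 on the log2 scale in E47 and 6.21, 7.21 and 6.57 in control cells. Ncr1, a more specific NK marker, was lower in E47 in every experiment (-0.13, -0.11 and -0.12), and Klre1 differed by 0.00, 0.06 and 0.02. No marker of either list passed in limma (1 of each had an unadjusted p under 0.05), Ncr1, Klra8 and Klre1 averaged below the array median, and the part of these cells in the level of Xcl1 was not tested. The 5 Treg markers summed to 9874 to 11940 in E47 and 12100 to 13550 in control cells, with 0 past the threshold and 1 at an unadjusted p under 0.05. B cell markers summed to 121.0 to 151.7 in E47 and 132.1 to 165.2 in control cells, and neutrophil and mast cell markers to 72.3 to 76.2 in E47 and 75.7 to 85.8 in control cells. Stromal and endothelial markers, mostly Pdpn, summed to 260.1 to 1042 in E47 and 227.7 to 1245 in control cells, and were lowest in experiment 2 in both groups, as Il1a, Ccl3 and Ccl4 were.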

How the data were processed

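Per the submitters' processing notes, the authors used RMA, which corrects background, equalises arrays and summarises probes, and deposited 1 intensity per probe set. The values were linear, so log2 was taken. Of 45101 probe sets, 34958 had 1 gene symbol, 932 several and 9211 were not listed in the annotation used here. The 64 Affymetrix control probe sets were left out. A gene was represented by its brightest probe set on average (18193 genes), and no dim gene was removed. Groups came from the sample titles. limma 3.58.1 in R 4.3.3 (lmFit, eBayes, two-sided) was fitted to all genes with the experiment (replicate number) as a block, with Benjamini-Hochberg adjustment at 0.05. The pairing comes from the design text and shared mouse ages. Deviations from group means correlated at 0.275, 0.672 and 0.425 in same-numbered arrays, but also at 0.250 and 0.179 between experiments 1 and 3, so they set apart experiment 2 alone. On simulated data for 18193 genes, 80% of changes of 1 and 90% of changes of 2 (log2) between groups were recovered with 2 false calls, and 59% and 92% between experiments with 3.

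With 3 arrays in each group and no read counts behind them, precision rests on the spread between experiments. Members and lists were chosen with earlier results of these data known. The text names every member and receptor, up to 4 genes past the threshold and up to 2 that missed it from each other list, and the 5 genes of most similar profile. Neighbouring genes, motif examples and list genes beyond these were picked with values in view. Alternatives were the block, scaling, an offset, a filter on dim genes, averaged probe sets, the eBayes prior and leaving out an experiment. No aligner or genome build applies to the arrays, and coordinates are those of the RefSeq promoter table.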

Additional observations from a re-analysis of the deposited data

How the results depend on the processing

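The log2 fold change of each of the 10 genes stayed negative in every alternative in which it was measured, and 9 of 10 were lower in every experiment after quantile normalization, all except Ccl5. The filter that kept only genes above the median level left 5 of the 10, Il1a, Ccl1, Ccl3, Ccl4 and Xcl1. The median log2 fold change of the 10 lay between -0.77 and -0.67. Counts over all genes moved more. With no replicate block, 1 gene was lower and 44 higher, against 66 and 142 with it, and the probe set count was 52 against 122. A random replicate block gave 13 lower and 79 higher. Brighter genes alone gave 147 and 215, trended robust variances 211 and 327, and an offset of 16 gave 106 lower. Leaving out 1 replicate gave 0 to 80 lower and 41 to 208 higher. At 0 lower in limma, without replicate 3, 794 genes were lower at an unadjusted p under 0.05. The number of the 10 genes that differed between experiments was 0 to 5 with 1 replicate left out, and 5 to 7 in the other alternatives. The shares of all genes in those fits are not given, so nothing is read from these numbers. With no block the test between experiments has no value. Other chemokine ligands gave 0 to 1 lower with 1 replicate left out. Other IL-1 family genes gave 0 lower in limma with no replicate block (1 at an unadjusted p under 0.05), 1 with a random replicate block and 0 to 1 with 1 replicate left out. The cause of these moves was not tested. Some of these fits held fewer arrays or genes, and others held the same ones. The receptor and signalling lists stayed at 0 in limma throughout. Detection above background could not be tested, which limits Ccl9 and Cxcl10 most.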
